A study of Mus musculus with 6 samples.

Results

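The genes described here build the lysosome: the proton pump that acidifies it (the vacuolar ATPase, V-ATPase), acid hydrolases with their activators, proteins of the lysosomal membrane, and the MiT/TFE transcription factors that switch such genes on. The list held 44 mouse genes chosen by symbol, 18 of them with a symbol starting Atp6 (the pump) and 26 others. To be tested, a gene needed a value of at least 3.32 (log2 of 10) in 3 or more of the 6 libraries. All 44 members met that filter, among 15059 genes that did of 47593 symbols.

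The cells were primary hippocampal neurons of wild-type (WT) mice at culture day 10. Apolipoprotein E (apoE) particles were added at 6 µg/mL, and 24 h later the RNA was taken for DNBSEQ libraries. One group of 3 libraries received particles made by microglia and the other group of 3 received particles made by astrocytes. Glia secrete apoE to carry lipids to neurons, and the comparison asks how neuronal RNA differs with the glial source. Untreated neurons were not analysed here, so every direction below is microglial relative to astrocytic apoE. The labels do not say whether the 3 libraries of a group came from separate cultures, so p-values measure the spread between these libraries, which may be technical.

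A lysosome digests material brought by endocytosis and autophagy with enzymes that work only in acid. The peripheral V1 sector of the pump splits ATP and turns a rotor, and the V0 sector in the membrane carries the protons. In neurons the same pump also acidifies synaptic vesicles, which uses the proton gradient to load transmitter. Inherited loss of many of these enzymes and membrane proteins causes neuronal storage disease. TFEB, TFE3 and MITF bind short palindromic motifs in the promoters of lysosomal genes.

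The deposited values are on a log2 scale that the libraries share, and each level below is such a value. They have the properties of a regularized logarithm, a transformation that shrinks fold changes and SDs of weakly expressed genes. The summed 2^value was 18060473 to 18337624 per library, a scale set by the transformation, and the read depth is unknown. Markers of neurons and of astrocytes were both abundant. The 12 neuronal markers had a summed 2^value of 81200 to 81800 with microglial and 84700 to 85700 with astrocytic apoE. Of these 4 were lower and 0 higher in limma, and the counts were the same at an unadjusted p below 0.05. Map2, a neuronal microtubule protein, stood at 14.53 ± 0.05 with microglial and 14.63 ± 0.02 with astrocytic apoE (SD, n = 3). The 12 astrocyte markers had a summed 2^value of 63700 to 64400 with microglial apoE and of 75400 to 76500 with astrocytic apoE. Of the 11 tested, 9 were lower and 1 was higher. The astrocyte filament gene Gfap was at 11.92 ± 0.02 with microglial and 13.00 ± 0.01 with astrocytic apoE. In bulk RNA, fewer cells of a type and less RNA per cell cannot be told apart. The 18 markers of microglia and macrophages, cells rich in lysosomes, summed to 1130 to 1170 with microglial and 1100 to 1130 with astrocytic apoE. Of the 13 tested 1 was higher and 0 were lower in limma, against 4 and 0 at an unadjusted p below 0.05. The one called was C1qc, at 5.56 with microglial and 5.51 with astrocytic apoE (0.06, limma adjusted p = 0.039). The highest in level was Sall1, also a gene of neural progenitors (9.31 with microglial and 9.25 with astrocytic apoE). Next came Adgre1, at 6.84 with microglial and 6.77 with astrocytic apoE, which did not pass (0.07, limma adjusted p = 0.062). C1qa followed (5.93 with microglial and 5.89 with astrocytic apoE). Tmem119 lay at 1.12 with microglial and 1.11 with astrocytic apoE, P2ry12 at 2.20 with both, and Siglech was listed at 0. Oligodendrocyte-lineage markers summed to 6610 to 6770 with microglial and 6500 to 6810 with astrocytic apoE, with 3 of 9 tested lower and 1 higher. Vessel and fibroblast markers summed to 964 to 981 with microglial and 944 to 961 with astrocytic apoE, with 2 of 6 tested higher. The part of these cell types in the lysosomal results was not tested.

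The 44 listed members more often stood higher than lower with microglial apoE, and by small amounts. Calls are from limma with Benjamini-Hochberg adjustment over every tested gene and a threshold of 0.05. By that rule 16 of the 44 members rose and 4 fell. Over all 15059 genes 13.0% rose and 11.8% fell, and 24.8% changed in all. The 16 that rose gained 5.67% to 20.7%, and the 4 that fell lost 5.71% to 13.1%. The highest log2 fold change among called members was that of progranulin (Grn, 0.27 ± 0.031 SE), and the lowest was that of the galactosylceramidase gene Galc (-0.20 ± 0.028 SE). In 24 members all 3 microglial libraries lay above all 3 astrocytic ones, and in 5 below, against 20.1% and 18.8% of all genes tested. The median over the 44 was 0.045, against -0.001 over all genes tested. Members are mostly abundant genes, and abundant genes were called more often: among the 4499 genes with a mean value of 10 to 15, 19.0% rose and 13.4% fell. Of the 32 members in that range, 15 rose and 2 fell. The members were chosen with earlier results of these data known, so these shares only describe the list. Of 89 further lysosomal genes tested, described below, 16 rose (18.0%) and 11 fell (12.4%).

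**Figure D1:**
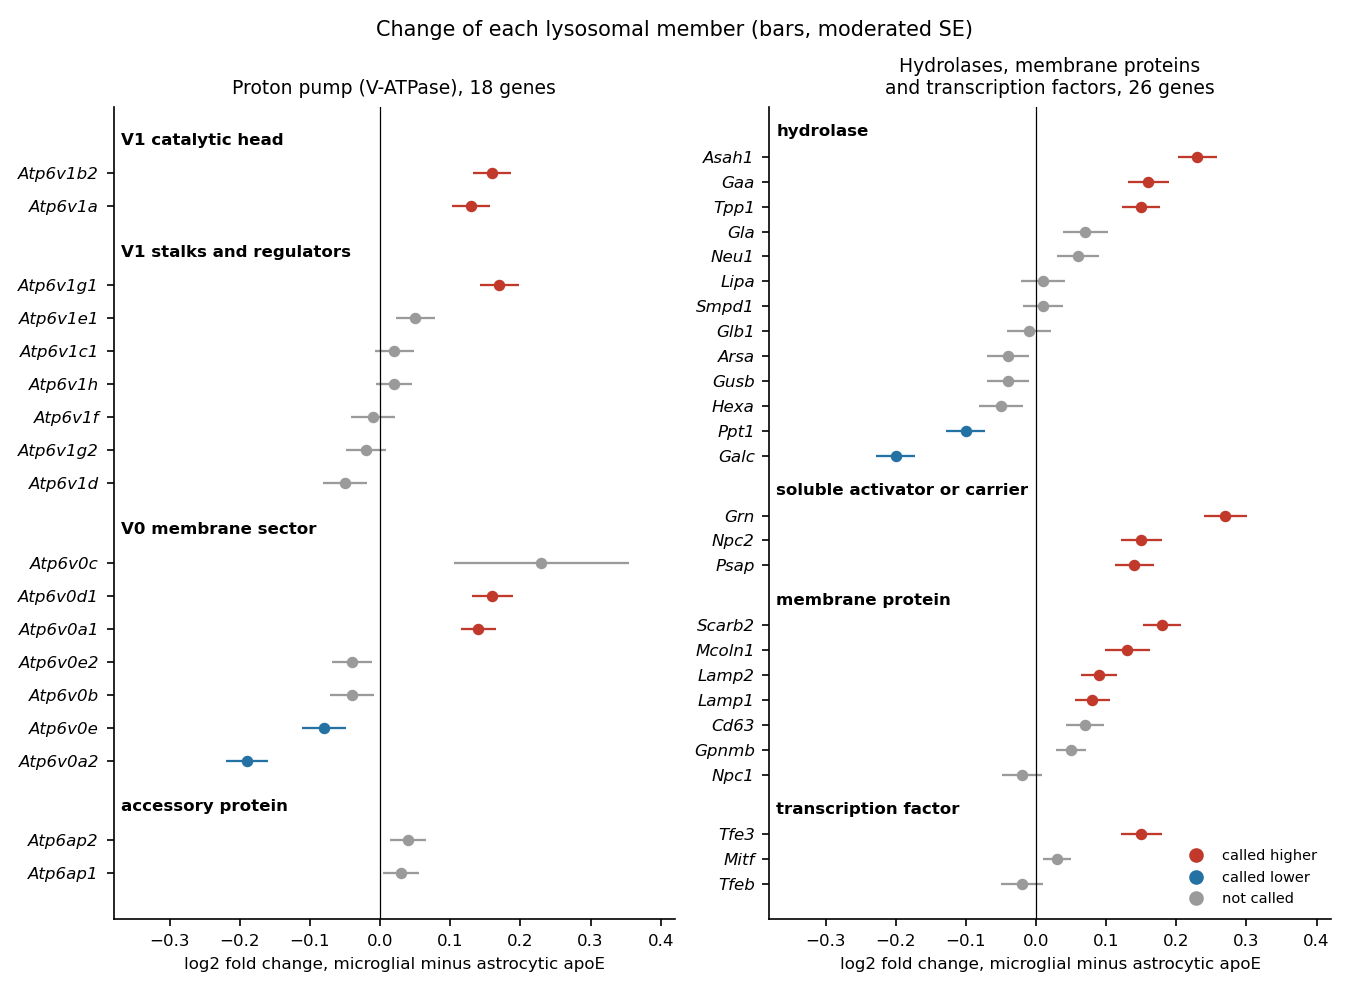
Log2 fold change (microglial minus astrocytic apoE, x axis) of the 18 pump genes and the 26 other members, with 1 moderated SE as a bar, ordered by role. Red genes were called higher, blue genes lower and grey genes were not called: 16 lie to the right in red, 4 to the left in blue, and the long bar of Atp6v0c marks the widest SE (0.125).

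Of the 18 pump genes 5 rose (27.8%) and 2 fell, with a median log2 fold change of 0.025. Of the 26 others 11 rose (42.3%) and 2 fell, with a median of 0.064. Over all genes tested 13.0% rose and 11.8% fell, and at mean values of 10 to 15, 19.0% and 13.4%. The median level was 11.5 for the pump and 10.3 for the others, so the pump counts are to be read beside the latter shares. Members are not replicates, so no test of the difference between those 2 sets was made. Scaling moved both medians: after each library was centred on its median they were 0.006 for the pump and 0.045 for the others. The split of calls over all genes moved as well. It was 1962 higher and 1780 lower as deposited, 1479 and 2767 with centring, and 2516 and 1318 with the summed 2^value made equal between libraries. No called member changed direction under any of the 12 alternatives, and 16 of the 20 were called in all of them. The 4 others were Lamp1, Lamp2, Ppt1 and Atp6v0e.

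In the V1 sector, RNA of both listed genes of the head that splits ATP was higher with microglial apoE. Atp6v1a, the catalytic A subunit (GRCm38, chromosome 16, 44085402 to 44139705), had values of 12.78, 12.74 and 12.79 with microglial apoE and 12.62, 12.68 and 12.64 with astrocytic apoE. All 3 microglial libraries lay above all 3 astrocytic ones, by 0.06 at the nearest, and the log2 fold change was 0.13 ± 0.027 SE (limma adjusted p = 0.0011). Atp6v1b2, the B subunit that alternates with A in the head (chromosome 8, 69088646 to 69113711), had 12.80, 12.81 and 12.78 with microglial apoE, against 12.60, 12.64 and 12.68 with astrocytic apoE. The groups were again apart (0.16 ± 0.027 SE, limma adjusted p = 9.3e-05), so both head genes rose.

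The stalks that hold head and membrane sector together changed in a single gene of 7. Atp6v1g1, the widely expressed G subunit of the peripheral stalk (chromosome 4, 63544772 to 63550750), had 11.51, 11.59 and 11.53 with microglial apoE and 11.35, 11.39 and 11.36 with astrocytic apoE (0.17 ± 0.028 SE, limma adjusted p = 4.9e-05). The groups were 0.11 apart. Its neuron-enriched paralog Atp6v1g2 had 10.45, 10.50 and 10.44 with microglial apoE and 10.49, 10.50 and 10.45 with astrocytic apoE, which overlap (-0.02 ± 0.029 SE, adjusted p = 0.72). The remaining 5, for the C, D, E, F and H subunits (Atp6v1c1, Atp6v1d, Atp6v1e1, Atp6v1f and Atp6v1h), had log2 fold changes of -0.05 to 0.05 and did not pass. Atp6v1d, a rotor subunit, passed as lower only without astrocytic replicate 3 (-0.079, adjusted p = 0.044). Without strand information, the 32 exon bases that Atp6v1e1 shares with the opposite-strand Slc25a18 and the 127 that Atp6v1h shares with Rgs20 cannot be assigned, and both partners fell (-0.63 and -0.32).

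The membrane sector V0 went both ways: 2 of 7 genes rose and 2 fell (28.6% each), against 13.0% and 11.8% of all genes tested. Atp6v0a1, the a subunit isoform of neuronal and synaptic vesicle pumps (chromosome 11, 101009452 to 101063719), had 13.42 in each of the 3 microglial apoE libraries and 13.27, 13.27 and 13.29 with astrocytic apoE (0.14 ± 0.025 SE, limma adjusted p = 0.00015). Atp6v0d1, which couples the rotor to the proton ring (chromosome 8, 105524465 to 105566047), had 11.96, 12.05 and 12 with microglial apoE and 11.79, 11.84 and 11.88 with astrocytic apoE (0.16 ± 0.029 SE, adjusted p = 0.00016). In both genes the groups were apart. Atp6v0a2, the a subunit isoform of the Golgi and endosomes (chromosome 5, 124628576 to 124724455), was the lowest pump gene by log2 fold change, with 10.13, 10.06 and 10.07 with microglial apoE and 10.31, 10.25 and 10.28 with astrocytic apoE (-0.19 ± 0.030 SE, adjusted p = 2.5e-05). Here every microglial library lay below every astrocytic one.

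Atp6v0e, a small membrane subunit (chromosome 17, 26663231 to 26699647), had 9.56, 9.60 and 9.61 with microglial apoE and 9.72, 9.68 and 9.62 with astrocytic apoE (-0.08 ± 0.031 SE, limma adjusted p = 0.049). The groups were only 0.01 apart, and the call was lost under 9 of the 12 alternatives. Among these were the omissions of microglial replicate 1 (adjusted p = 0.19), 2 (0.063) or 3 (0.076) and of astrocytic replicate 1 (0.24) or 2 (0.15). Its paralog Atp6v0e2 did not pass (-0.04 ± 0.029 SE, adjusted p = 0.36), with 11.93, 12.02 and 11.92 with microglial and 11.97, 12.01 and 12.01 with astrocytic apoE. Atp6v0b, a subunit of the proton ring, did not pass either (-0.04, adjusted p = 0.32), but was called lower without microglial replicate 2 (-0.082, adjusted p = 0.037).

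Atp6v0c, which encodes the proteolipid that forms most of the proton ring (chromosome 17, 24163866 to 24169702), varied more between libraries than any other member. It had 10.79, 10.81 and 10.64 with microglial apoE and 10.45, 10.35 and 10.74 with astrocytic apoE. Astrocytic replicate 3 lay within the microglial range, so the groups overlapped and the gene did not pass (0.23 ± 0.125 SE, limma adjusted p = 0.27). Without that library the log2 fold change was 0.344 and the gene passed (adjusted p = 0.00034). The gene has 2 annotated processed pseudogenes, of which Atp6v0c-ps1 was listed at 0 and Atp6v0c-ps2 had no level listed. How reads shared with them were counted is not known. The accessory subunits, Atp6ap1, which helps assemble the pump, and Atp6ap2, the prorenin receptor, did not pass (0.03 ± 0.026 SE and 0.04 ± 0.026 SE, adjusted p = 0.48 and 0.28). Atp6ap2 had 11.88, 11.90 and 11.91 with microglial apoE and 11.85, 11.88 and 11.84 with astrocytic apoE.

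**Figure D2:**
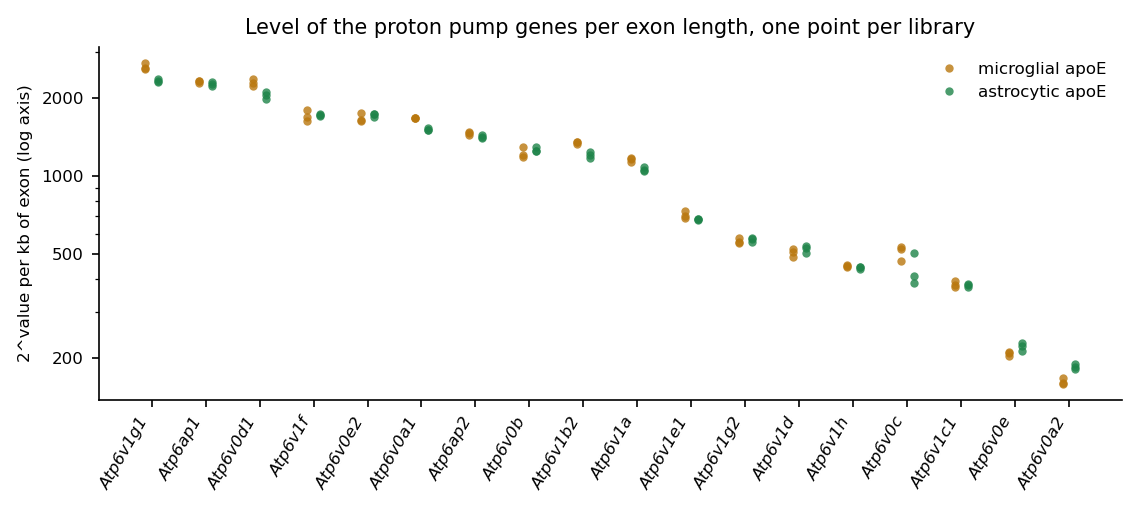
Level of the 18 pump genes as 2^value divided by merged exon length in kb (log axis), 1 point per library, microglial apoE left of astrocytic apoE. Atp6v1g1 is highest at 2620 per kb with microglial and 2330 per kb with astrocytic apoE, and Atp6v0a2 is lowest at 162 per kb with microglial and 185 per kb with astrocytic apoE.

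Per exon length, pump genes spanned a wide range, and paralogs of the same subunit stood far apart. On the scale of 2^value per kb of exon, Atp6v0a1 averaged 1670 with microglial and 1520 with astrocytic apoE, while Atp6v0a2 averaged 162 with microglial and 185 with astrocytic apoE. Atp6v0e2 averaged 1670 with microglial and 1710 with astrocytic apoE, and Atp6v0e 207 with microglial and 220 with astrocytic apoE. Atp6v1g1 averaged 2620 with microglial and 2330 with astrocytic apoE, and Atp6v1g2 563 with microglial and 570 with astrocytic apoE. Merged exon length counts exons that these cells may not use, so orders between close neighbours, such as Atp6v1f, Atp6v0e2 and Atp6v0a1, are not resolved.

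The difference between paralogs within a library does not depend on how libraries are scaled. Atp6v0a1 exceeded Atp6v0a2 by 3.28, 3.36 and 3.35 on the log2 scale with microglial apoE and by 2.96, 3.03 and 3.01 with astrocytic apoE. The difference averaged 3.33 ± 0.04 with microglial and 3.0 ± 0.03 with astrocytic apoE (SD, n = 3), a 10.1-fold against an 8.0-fold excess of 2^value. The groups did not overlap, and the two-sided exact permutation test gave p = 0.10, the smallest that 3 against 3 libraries allow. Atp6v1g1 exceeded Atp6v1g2 by 1.07 ± 0.02 with microglial and 0.88 ± 0.03 with astrocytic apoE, also without overlap (exact p = 0.10). Atp6v0e2 exceeded Atp6v0e by 2.37 ± 0.05 with microglial and 2.32 ± 0.07 with astrocytic apoE, which overlap (exact p = 0.5). Those 3 pairs were all that were compared.

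**Figure D3:**
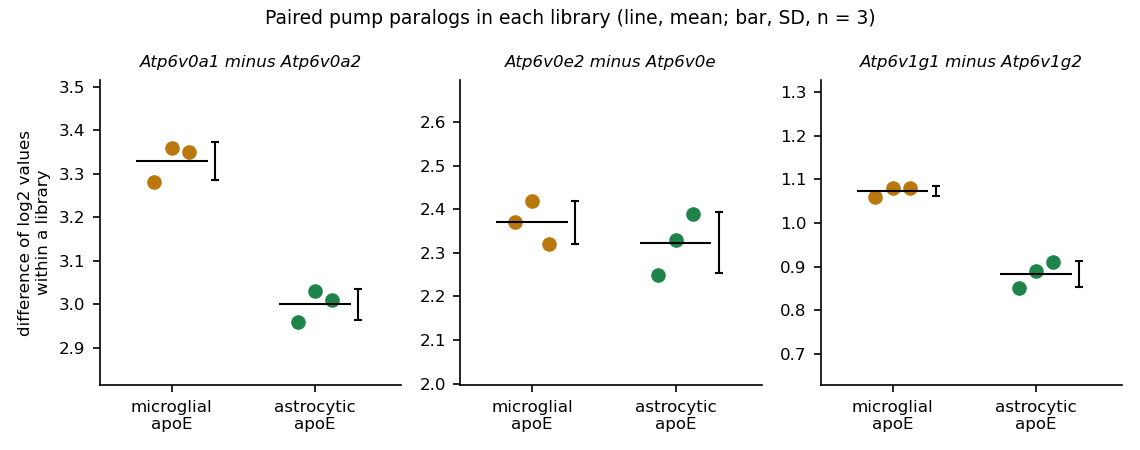
Difference of the log2 values of paired pump paralogs within each library (y axis), microglial apoE left of astrocytic apoE, with the mean as a line and the SD as a bar (n = 3). The groups separate for the a subunits (3.28 to 3.36 with microglial and 2.96 to 3.03 with astrocytic apoE) and for the G subunits, and overlap for the e subunits.

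Of the 13 hydrolases 3 rose and 2 fell with microglial apoE, or 23.1% and 15.4%, with a median log2 fold change of 0.012. Over all genes tested 13.0% rose and 11.8% fell, and at mean values of 10 to 12, 18.8% and 13.0%. The hydrolase counts lie near the shares at values of 10 to 12. Asah1, acid ceramidase, which cleaves ceramide to sphingosine (chromosome 8, 41340197 to 41374773), had 11.24, 11.29 and 11.27 with microglial apoE and 11.06, 11.04 and 11.00 with astrocytic apoE. The groups were 0.19 apart (0.23 ± 0.028 SE, limma adjusted p = 4.9e-07). Galc, which cleaves galactosylceramide and is the enzyme lost in Krabbe disease (chromosome 12, 98202294 to 98259459), had 9.51, 9.52 and 9.51 with microglial apoE and 9.71, 9.71 and 9.72 with astrocytic apoE. It fell by 0.20 on the log2 scale with groups 0.19 apart (SE 0.028, adjusted p = 5.4e-06). Galc is also a gene of myelinating cells, and the oligodendrocyte-lineage markers Pdgfra (-0.38), Cnp (-0.20) and Sox10 (-0.11) fell too, while Olig2 rose (0.15). Their part in the Galc result was not tested. The genes of these neighbouring steps of sphingolipid breakdown thus moved in opposite directions, each by more than the spread between libraries. The other sphingolipid enzymes did not pass: acid sphingomyelinase (Smpd1, 0.01), arylsulfatase A (Arsa, -0.04), the hexosaminidase alpha chain (Hexa, -0.05) and alpha-galactosidase A (Gla, 0.07), with SEs of 0.028 to 0.032.

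Gaa, which breaks down glycogen in the lysosome and is lost in Pompe disease (chromosome 11, 119267887 to 119285454), had 11.76, 11.75 and 11.80 with microglial apoE and 11.58, 11.59 and 11.67 with astrocytic apoE (0.16 ± 0.029 SE, limma adjusted p = 0.00017). Tpp1, a tripeptidyl peptidase (chromosome 7, 105744811 to 105752235), had 10.88, 10.87 and 10.88 with microglial apoE and 10.74, 10.72 and 10.73 with astrocytic apoE (0.15 ± 0.027 SE, adjusted p = 0.00015). Both genes had all microglial libraries above all astrocytic ones. Ppt1, which removes palmitate from proteins (chromosome 4, 122836242 to 122859175), had 10.34, 10.34 and 10.39 with microglial apoE and 10.47, 10.44 and 10.45 with astrocytic apoE (-0.10 ± 0.028 SE, adjusted p = 0.011). Loss of TPP1 or of PPT1 causes a neuronal ceroid lipofuscinosis, and here the gene of the peptidase rose while that of the thioesterase fell. The Ppt1 call was lost without microglial replicate 1 or astrocytic replicate 1 (adjusted p = 0.060 in each case).

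Glb1, the beta-galactosidase whose activity stains senescent cells, had 8.81, 8.86 and 8.79 with microglial apoE and 8.81, 8.81 and 8.87 with astrocytic apoE. The groups overlapped and the gene did not pass (-0.01 ± 0.031 SE, limma adjusted p = 0.90). The sialidase Neu1 (0.06), the glucuronidase Gusb (-0.04) and acid lipase (Lipa, 0.01) did not pass either, with SEs of 0.030 to 0.032.

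All 3 listed genes of soluble activators or carriers rose, against 13.0% of all genes tested. The activator gene Gm2a, of a further list given below, fell (-0.12 ± 0.028 SE, limma adjusted p = 0.0017). Grn, progranulin, a secreted and lysosomal glycoprotein whose loss causes frontotemporal dementia or lipofuscinosis (chromosome 11, 102430315 to 102437048), had 10.72, 10.78 and 10.73 with microglial apoE and 10.45, 10.43 and 10.54 with astrocytic apoE. The groups were 0.18 apart (0.27 ± 0.031 SE, a 1.21-fold difference, limma adjusted p = 2.8e-07). Psap, prosaposin, the precursor of the saposins that present sphingolipids to their hydrolases (chromosome 10, 60277627 to 60302597), had 14.57, 14.62 and 14.57 with microglial apoE and 14.41, 14.43 and 14.51 with astrocytic apoE (0.14 ± 0.028 SE, adjusted p = 0.00054). Npc2, which passes cholesterol to NPC1 (chromosome 12, 84754562 to 84773152), had 11.17, 11.21 and 11.17 with microglial apoE and 11.01, 10.99 and 11.08 with astrocytic apoE (0.15 ± 0.029 SE, adjusted p = 0.00027). In all 3 genes every microglial library lay above every astrocytic one. Per exon length Psap was the highest of the 44 members, at 8970 per kb with microglial and 8150 per kb with astrocytic apoE. Grn shares 68 exon bases with Fam171a2 on the opposite strand, which did not pass (0.06, adjusted p = 0.45). Of the other called members, Ppt1 shares 129 with Cap1, Lamp1 249 with Grtp1, Galc 400 with Gm47439 and Atp6v0a2 663 with 4930404A12Rik, itself listed at 0. With no strand setting stated, reads from these stretches cannot be told apart.

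**Figure D4:**
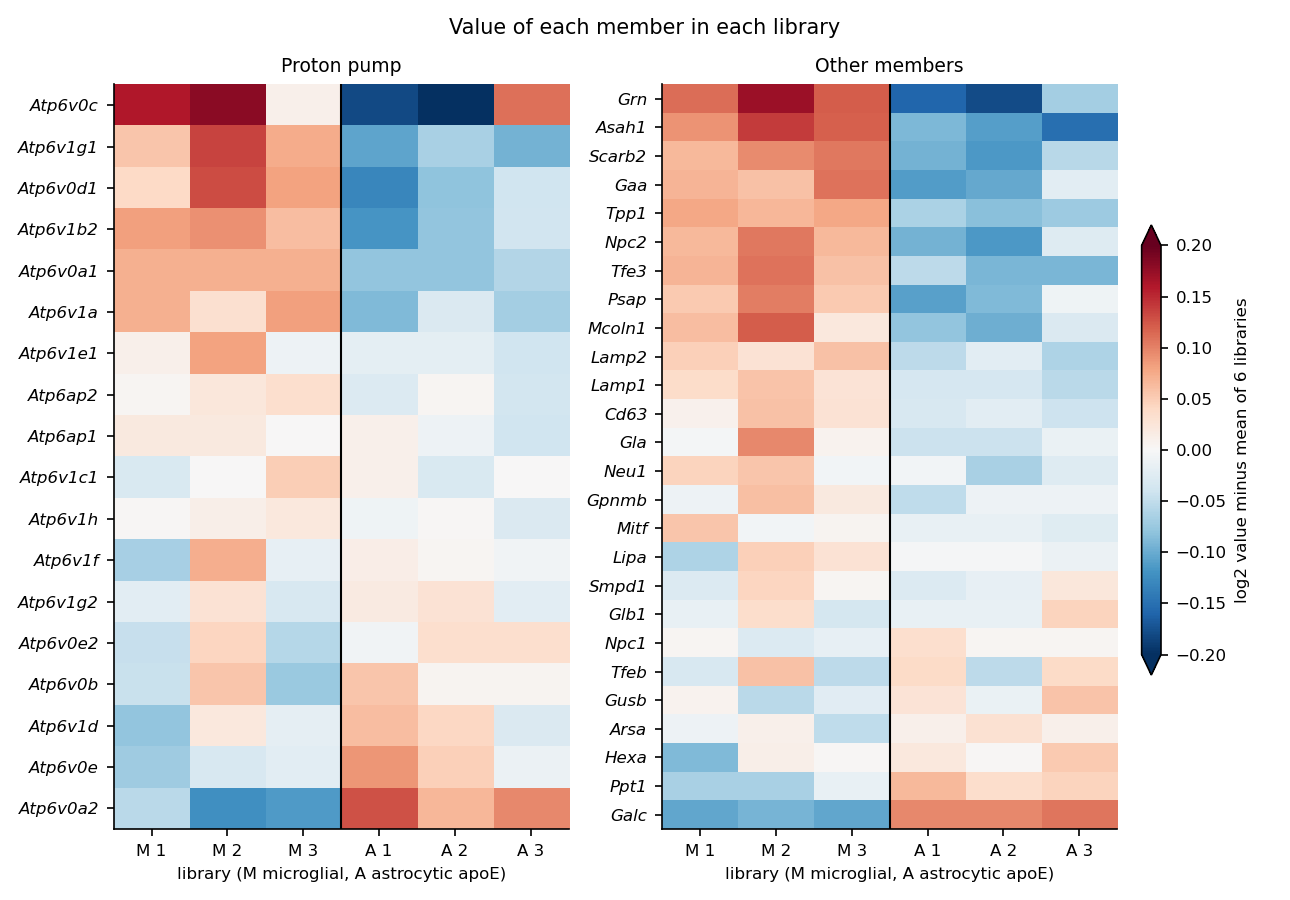
Log2 value of each member in each library minus its mean over the 6 libraries (colour), with the 3 microglial apoE libraries left of the 3 astrocytic apoE libraries and genes ordered by fold change. The upper rows turn from red to blue at the line between the groups, except that Atp6v0c is red in astrocytic replicate 3, and Galc and Atp6v0a2 at the foot show the opposite colours.

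Of the 7 membrane proteins 4 rose (57.1%) and 0 fell in limma, against 13.0% and 11.8% of all genes tested. At an unadjusted p below 0.05, 6 were higher, with Cd63 and Gpnmb added, and 0 were lower. Scarb2, a membrane glycoprotein that also carries an enzyme to the lysosome (chromosome 5, 92441314 to 92506833), had 12.35, 12.38 and 12.39 with microglial apoE and 12.19, 12.17 and 12.23 with astrocytic apoE (0.18 ± 0.027 SE, limma adjusted p = 2.3e-05). Mcoln1, the calcium channel of the lysosomal membrane (chromosome 8, 3500457 to 3515232), had 9.88, 9.94 and 9.84 with microglial apoE and 9.74, 9.72 and 9.79 with astrocytic apoE (0.13 ± 0.032 SE, adjusted p = 0.0030). Both had separate groups, though those of Mcoln1 were only 0.04 apart.

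Among the called membrane protein genes, those of the abundant glycoproteins that line the membrane rose least. Lamp1 (chromosome 8, 13159161 to 13175338) had 13.98, 14.00 and 13.97 with microglial apoE and 13.91, 13.91 and 13.89 with astrocytic apoE (0.08 ± 0.025 SE, limma adjusted p = 0.019). Lamp2 (chromosome X, 38401357 to 38456454) had 12.37, 12.35 and 12.38 with microglial apoE and 12.27, 12.30 and 12.26 with astrocytic apoE (0.09 ± 0.026 SE, adjusted p = 0.012). Their groups did not overlap, yet the calls were fragile. That of Lamp1 was lost without microglial replicate 1 (adjusted p = 0.064) or 3 (0.055), without astrocytic replicate 1 (0.055) or 2 (0.077), and with median centring (0.058). That of Lamp2 was lost without microglial replicate 1 (0.052) or 3 (0.069).

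The tetraspanin Cd63 did not pass (0.07 ± 0.027 SE, limma adjusted p = 0.075), and nor did Npc1, which exports cholesterol from the lysosome (-0.02 ± 0.028 SE, adjusted p = 0.58). So of the NPC1 and NPC2 pair that hands cholesterol out of the lysosome, the gene of the soluble partner passed. The difference between the genes was not tested. Gpnmb, a glycoprotein of stressed phagocytes, was weakly expressed, at 5.50, 5.57 and 5.53 with microglial apoE and 5.46, 5.50 and 5.50 with astrocytic apoE (0.05 ± 0.022 SE, adjusted p = 0.099). After libraries were scaled to equal sums, Cd63 and Gpnmb passed as higher (adjusted p = 0.034 and 0.042).

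Among the transcription factors only Tfe3 passed. Tfe3 (chromosome X, 7762560 to 7775202) had 10.30, 10.34 and 10.29 with microglial apoE and 10.18, 10.14 and 10.14 with astrocytic apoE (0.15 ± 0.029 SE, limma adjusted p = 0.00024), with groups 0.11 apart. Tfeb had 6.42, 6.51 and 6.40 with microglial apoE and 6.49, 6.40 and 6.49 with astrocytic apoE (-0.02 ± 0.030 SE, adjusted p = 0.69). Mitf had 5.40, 5.34 and 5.35 with microglial apoE and 5.33, 5.33 and 5.32 with astrocytic apoE (0.03 ± 0.020 SE, adjusted p = 0.23). Per exon length Tfe3 was the most abundant of the family, at 137 per kb with microglial and 123 per kb with astrocytic apoE, followed by Tfeb at 15.3 with microglial and 15.6 with astrocytic apoE and Mitf at 6.64 with microglial and 6.48 with astrocytic apoE. At the low levels of Tfeb and Mitf the transformation shrinks fold changes, so these values cannot show that they were unchanged. These factors are controlled mainly by their passage into the nucleus, which RNA does not measure.

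The motif bound by MiT/TFE factors was searched in RefSeq promoters (GRCm38.p6, 250 bases before to 50 after each start), which matched 37 of the 44 members. The letters searched were the core CACGTG and its flanked form TCACGTGA, which contains the core. Both are palindromes, so a single search covers both strands. CACGTG was in 10 of 46 member promoters (21.7%), against 7.15% of all 32851 promoters and 9.60% of 13888 promoters of genes tested. TCACGTGA was in 5 of 46 (10.9%) against 0.974% of all and 1.71% of those of genes tested. A longer palindrome, TCACGTGA with G before and C after it, was in 0 of 46, against 0.326% of all and 0.641% of those of genes tested. The 5 genes with TCACGTGA were Atp6v1a, Atp6v0d1 and Mcoln1, which rose, Atp6v0e, which fell, and Gla, which did not pass. They are shown with Lamp1, which had 4 copies of the core, the most of any member. Each line is read 5′ to 3′ on the gene's strand, capitals mark the motif, and a match is a description of letters, not of binding.
Atp6v1a: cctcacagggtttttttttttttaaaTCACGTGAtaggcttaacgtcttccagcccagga
Atp6v0d1: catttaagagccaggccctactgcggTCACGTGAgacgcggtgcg
Mcoln1: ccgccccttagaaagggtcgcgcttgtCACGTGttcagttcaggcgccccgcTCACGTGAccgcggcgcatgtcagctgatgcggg
Atp6v0e: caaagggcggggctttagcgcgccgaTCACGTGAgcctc
Gla: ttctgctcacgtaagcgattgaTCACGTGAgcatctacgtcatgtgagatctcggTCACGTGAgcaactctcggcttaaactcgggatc
Lamp1: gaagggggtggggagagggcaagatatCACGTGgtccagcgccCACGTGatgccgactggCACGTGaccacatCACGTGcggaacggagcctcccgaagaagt

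These windows lie at chr16:44139358-44139417 on the minus strand for Atp6v1a, chr8:105566050-105566094 (minus) for Atp6v0d1, and chr8:3500421-3500506 (plus) for Mcoln1. Those of Atp6v0e, Gla and Lamp1 lie at chr17:26676372-26676410 (plus), chrX:134601167-134601255 (minus) and chr8:13159073-13159175 (plus). CACGTG was found for 5 of the 13 matched genes that rose, Atp6v1a, Atp6v0d1, Gaa, Lamp1 and Mcoln1. It was found for 1 of 3 that fell (Atp6v0e) and 4 of 21 that did not pass (Atp6v0b, Arsa, Glb1 and Gla). Of the 10796 matched genes among all those tested, 11.5% held CACGTG. The matched promoters of Grn, Scarb2 and Tfe3, which rose, held no CACGTG.

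A further 97 lysosomal genes were taken in 5 lists. Of 89 tested, 16 rose (18.0%) and 11 fell (12.4%), with a median log2 fold change of 0.013, against 13.0% and 11.8% of all genes. Over all genes of a mean value of 8 to 10, 14.7% rose and 11.5% fell, and at 10 to 12, 18.8% and 13.0%. The counts of each list below are to be read beside these shares. In the 5 lists together the balance turned with scaling: 13 rose and 17 fell with median centring, and 23 rose and 8 fell with equal sums. Without astrocytic replicate 2 the counts were 9 and 5. The counts of genes that fell were 6 without microglial replicate 1 and 7 without astrocytic replicate 1.

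**Figure D5:**
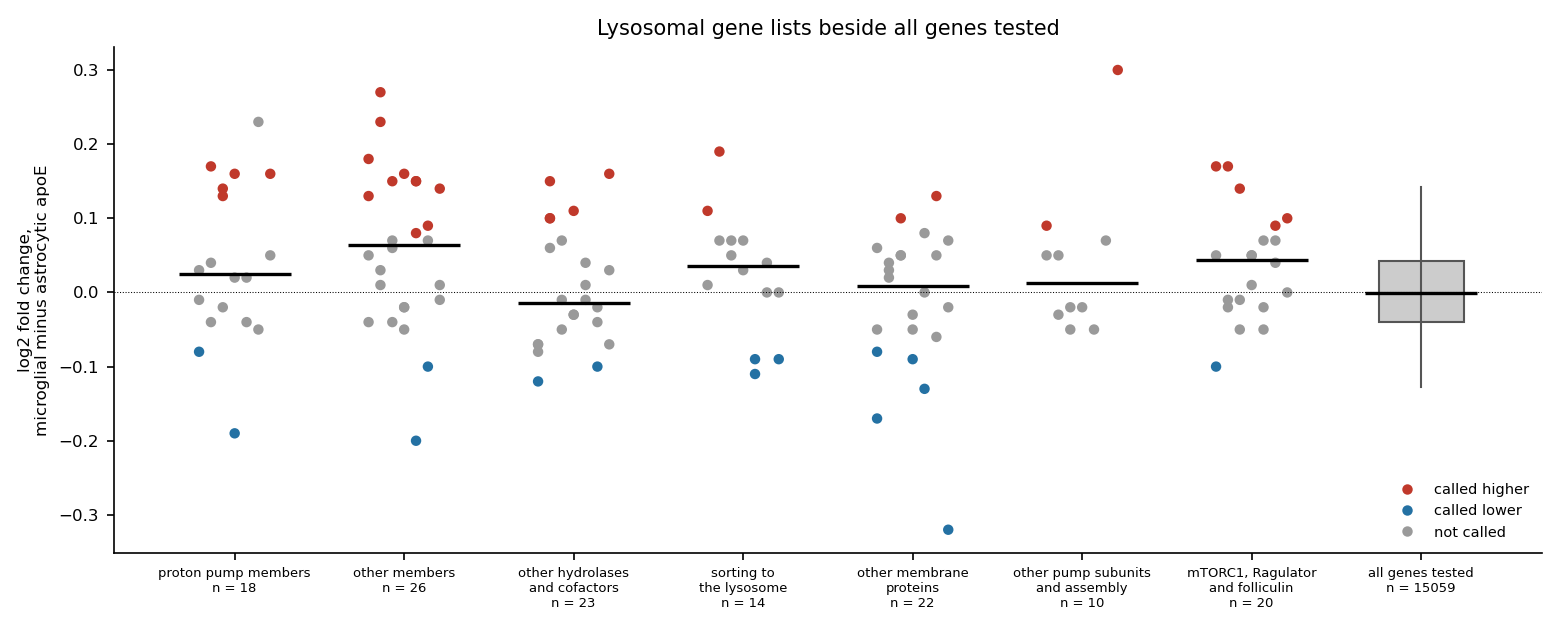
Log2 fold change (microglial minus astrocytic apoE, y axis) of each gene in the pump, the other members and 5 further lysosomal lists, coloured by call, with the list median as a line. The box spans the 25th to 75th percentile of all 15059 genes tested (-0.040 to 0.042) and its whisker the 5th to 95th.

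Of 23 other hydrolases and cofactors 5 rose and 2 fell (median -0.014). Those that rose numbered 3 without microglial replicate 1 and 2 without astrocytic replicate 2, and 1 fell without microglial replicate 2 or astrocytic replicate 2. The ganglioside activator Gm2a fell (-0.12 ± 0.028 SE, limma adjusted p = 0.0017). Of 22 other membrane proteins 2 rose and 5 fell (median 0.009). Only 1 rose without astrocytic replicate 1 or 2, and 3 fell without microglial replicate 1 or 3 or astrocytic replicate 2. The sharpest was the cation channel gene Tpcn1, at 9.38 ± 0.03 with microglial and 9.69 ± 0.01 with astrocytic apoE (SD, n = 3), a log2 fold change of -0.32 ± 0.029 SE (adjusted p = 6.3e-09). The lipid transporter Abca2 (-0.17 ± 0.028 SE) and the proton leak channel Tmem175 (-0.13 ± 0.032 SE) fell, and Tmem192 (0.13 ± 0.030 SE) rose.

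Of 14 genes that sort proteins to the lysosome 2 rose and 3 fell (median 0.035), and 1 fell without microglial replicate 1 or astrocytic replicate 1 or 2. Laptm4b (0.19 ± 0.031 SE) and Laptm4a (0.11 ± 0.026 SE) rose, and Gnptab, which makes the mannose phosphate tag (-0.11 ± 0.028 SE), and the retromer gene Vps35 (-0.09 ± 0.027 SE) fell. The Vps35 call was lost without microglial replicate 1 or astrocytic replicate 1 or 2 (limma adjusted p = 0.053, 0.091 and 0.097). Of 20 genes in the mTORC1, Ragulator and folliculin control of MiT/TFE factors, 5 rose and 1 fell (median 0.044), which gives no direction of that control. Of them 3 rose without microglial replicate 3 or astrocytic replicate 2, and the call of the gene that fell was lost without microglial replicate 1 or astrocytic replicate 1 or 2. The Rag GTPases Rraga (0.17 ± 0.029 SE) and Rragc (0.14 ± 0.028 SE), folliculin (Flcn, 0.17 ± 0.028 SE) and Lamtor3 (0.10 ± 0.030 SE) were the leading ones, and the Lamtor3 call was lost without microglial replicate 3 or astrocytic replicate 2 (adjusted p = 0.052 and 0.14).

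Of 17 further pump subunits, assembly and RAVE factors 10 were tested, 2 rose and 0 fell in limma. At an unadjusted p below 0.05, 3 were higher, with Rogdi added, and 0 were lower. Without astrocytic replicate 3, 1 was called lower. Tcirg1, the a subunit isoform of osteoclasts and immune cells, had 8.10, 8.13 and 8.09 with microglial apoE and 7.82, 7.79 and 7.80 with astrocytic apoE. The groups of Tcirg1 were 0.27 apart (0.30 ± 0.029 SE, limma adjusted p = 1.4e-08), more than those of any of the 44 members. Ccdc115, an assembly factor, rose by 0.09 ± 0.031 SE (adjusted p = 0.041), a call lost without microglial replicate 1 (0.083) or 2 (0.21) and without astrocytic replicate 1 (0.11) or 2 (0.10). The tissue-restricted paralogs Atp6v0a4, Atp6v0d2, Atp6v1b1, Atp6v1c2 and Atp6v1e2 lay between 0.38 and 3.30 in group means and were not tested, and Atp6v1g3 was listed at 0.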

How the data were processed

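Per the labels, the authors sequenced RNA of primary neurons in 6 libraries and deposited a log2 value per gene symbol and library. FastQC, HISAT2, featureCounts, DESeq2 and GRCm38 are named in the submitters' processing notes, without versions. Annotation and strand setting are not stated in them. The transformation is inferred: 21031 symbols stood at 0 in all libraries and 0 in only some. No pseudocount was added. limma 3.58.1 (R 4.3.3, trend and robust) compared microglial with astrocytic apoE, with Benjamini-Hochberg adjustment over all 15059 genes tested. If 2^value were reads, counting alone would give a median SD of 0.0617 at values of 8 to 10 and 0.0346 at 10 to 12, where the median SDs within groups were 0.0362 and 0.0326, so errors may be understated there, most for Galc, Mcoln1, Atp6v0e and others below 10. Positions and exon lengths are from GENCODE M21, promoters from RefSeq. Python 3.11.15, pandas 2.3.3, scipy 1.17.1 and matplotlib 3.10.9 made tables and figures.

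Members and lists were chosen with earlier results of these data known. All members are named. Library values are given for called members and for Lamp1, Lamp2, Glb1, Tfeb, Tfe3, Mitf, Gpnmb, Atp6v0c, Atp6ap2 and the paralog pairs, and each further list names up to 4 called genes with the smallest p, a few of which are not reported here. Tcirg1's library values were added after they were seen. Alternatives were 2 filters, 2 scalings, limma without its options, a replicate block and each library left out.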

Additional observations from a re-analysis of the deposited data

How the results depend on the processing

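The 12 alternatives left the direction of every called member unchanged. Pump genes called higher numbered 5 to 6 with a library left out, and those called lower 1 to 3. Of pump genes, 1 fell (Atp6v0a2) with no filter on low values, with equal sums of 2^value, without limma's trend and robust options and with the replicate block, against 2 in all. Other members called higher numbered 9 to 11 and lower 1 to 2 with a library left out. With median centring the medians were 0.006 for the pump and 0.045 for the others, genes called lower numbered 2767 over all, and the 5 further lists gave 13 higher and 17 lower, against 23 and 8 with equal sums and 16 and 11 as deposited. Further lysosomal genes numbered 9 to 19 higher and 5 to 12 lower with a library left out. Uncalled members near 0 changed sign: with median centring Atp6v1c1 (-0.001), Smpd1 (-0.006) and Lipa (-0.003), and with equal sums Atp6v1f (0.008) and Glb1 (0.007). With a library left out, Atp6v1c1 ranged from -0.004 to 0.037, Atp6v1f from -0.044 to 0.024, Smpd1 from -0.006 to 0.028, Glb1 from -0.025 to 0.015, Lipa from -0.008 to 0.049 and Tfeb from -0.052 to 0.00. The cause of these moves was not tested. The libraries share only a number: same-numbered libraries had correlated deviations of 0.0388, -0.122 and -0.186, only microglial replicate 1 matched its own number best, and the replicate block gave 3388 calls against 3742, without Lamp1 (limma adjusted p = 0.055) and Atp6v0e (0.074). Genes below a value of 8 are limited by the shrinkage of the transformation.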

Other observations

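Astrocytic replicate 3 was the astrocytic library nearest to the microglial ones for 9 of the 16 members that rose (56.2%), and for 60.9% of the 1962 genes of all kinds that rose. For genes that fell it was nearest in 1 of 4 members and in 49.6% of 1780 genes. Without that library 4544 genes were called, against 3742 with it.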
